A study of Mus musculus with 18 samples.

Results

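The genes described here are 8 regulators of the skeletal muscle lineage, Myod1, Myf5, Myf6, Myog, Pax3, Pax7, Six4 and Mymk, in the chromatin of bone marrow-derived macrophages (BMDM), a blood cell that does not form muscle. They were chosen by name, with earlier results of these data known. They are 8 of 21755 protein-coding genes that GENCODE vM21 places on mm10 chromosomes 1 to 19 and X. All 8 were found in the annotation. For each gene, every H3K27me3 and H3K27ac peak that touched the gene body, the 5 kb before it or the 1 kb after it (together the gene window) was collected. The gene start is the 5′ end of the gene record.

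BMDM are grown from marrow in medium that carries macrophage growth factor, and here they were left unstimulated. By the study's methods the mice were male and on a C57BL/6J background, while the strain labels differ between groups. They came from WT mice (labelled C57BL6), mdx mice (labelled Dmdmdx-4Cv, dystrophin-deficient mice that model Duchenne muscular dystrophy) and mdxTLR4-/- mice (titled mTLR4 and labelled Bl6/Bl10, dystrophin-deficient mice that also lack the innate immune receptor TLR4). H3K27me3 was profiled in 2 ChIP libraries and 2 inputs per genotype, and H3K27ac in 2 WT, 2 mdx and 1 mdxTLR4-/- ChIP library with 1 input, 18 samples in all. The authors merged the replicates before calling peaks, so that each mark has 1 peak list per genotype, no spread between mice can be given and no difference between genotypes can be tested. The labelled ages of the mice differed between genotypes, from 12 to 13 weeks for WT, 14 to 15 weeks for mdx and 16 to 17 weeks for mdxTLR4-/- in the H3K27me3 ChIP libraries. In the H3K27ac ChIP libraries they were 19 to 20, 21 to 22 and 23 weeks. Over all 18 samples the labelled age rises by exactly 1 week from each sample to the next, from 6 to 23 weeks, so that input and ChIP of the same genotype differ too, and whether these are the true ages is not known. The labelled age, the labelled strain and the genotype cannot be told apart.

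Skeletal muscle is specified by a short hierarchy of transcription factors. Pax3 and Pax7, paired-box factors of embryonic progenitors and of satellite cells, act together with Six4 and other homeodomain proteins upstream of the basic helix-loop-helix factors Myf5, Myod1, Myog and Myf6, which switch on the muscle programme, and Mymk (myomaker) is a membrane protein that the myoblast needs for fusion. H3K27me3 is deposited by the Polycomb complex PRC2, often in broad domains over developmental genes that a lineage does not use, whereas H3K27ac marks active promoters and enhancers. RNA was not measured in these libraries, so the marks are described without a statement on expression.

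The H3K27me3 lists held 28143 peaks in WT, 41780 in mdx and 36488 in the mdxTLR4-/- BMDM, with 8331331, 10199918 and 7358418 reads in peaks. The H3K27ac lists were far thinner, with 15665, 12076 and 12493 peaks and 274020, 191629 and 168487 reads in peaks. The number of reads in peaks depends on how much was called, and sequencing depth is not known. A region outside the peaks is not a region without reads, since the smallest H3K27me3 peaks still held 27, 17 and 16 reads. The cell type was checked on 12 macrophage genes (among them Spi1, Csf1r and Adgre1), of which 12 had an H3K27ac peak in the window in each genotype, 11, 11 and 10 had one within 1 kb of the start, and 0 had an H3K27me3 peak in any. Of the B cell, T cell and fibroblast lists (5, 6 and 6 genes), 2, 1 and 1 B cell, 1, 1 and 1 T cell and 2, 2 and 2 fibroblast genes had an H3K27ac peak in the window in WT, mdx and mdxTLR4-/- BMDM, and 0 had one within 1 kb of the start. Under H3K27me3 were the starts of 3, 3 and 3 B cell, 4, 5 and 4 T cell and 5, 5 and 5 fibroblast genes. Among all protein-coding genes, 40.1%, 34.8% and 36.8% had an H3K27ac peak in the window. The start was under H3K27me3 in 23.7%, 24% and 22.9%. With lists of 5 and 6 genes, the H3K27ac window counts cannot show that other cell types were absent.

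Promoter sequences were available from RefSeq (GRCm38.p6) for 4 of the 8 genes, Myf5, Myog, Pax7 and Six4; those of Myod1, Myf6, Pax3 and Mymk are named only. They are shown because 2 of them lay under an H3K27me3 peak in all 3 genotypes (Pax7 and Six4) and 2 under no peak in any genotype (Myf5 and Myog), and because the pairs differ in their content of the dinucleotide CpG. Each runs 5′ to 3′ from 250 bp upstream to 50 bp downstream of the RefSeq start, and capitals mark each CpG. Myf5 is at chr10:107486085-107486384 on the minus strand, Myog at chr1:134289754-134290053 on the plus strand, Pax7 at chr4:139832919-139833218 on the minus strand and Six4 at chr12:73113376-73113675 on the minus strand. The RefSeq start of Pax7 lies 560 bp from the GENCODE start, and those of Myf5, Myog and Six4 lie 0, 15 and 31 bp from it.
Myf5 promoter: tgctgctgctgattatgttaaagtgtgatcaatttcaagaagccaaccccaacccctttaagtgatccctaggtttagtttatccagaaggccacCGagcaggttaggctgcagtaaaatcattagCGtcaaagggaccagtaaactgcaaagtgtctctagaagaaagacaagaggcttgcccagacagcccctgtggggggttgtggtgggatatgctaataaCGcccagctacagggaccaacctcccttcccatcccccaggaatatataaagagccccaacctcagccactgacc
Myog promoter: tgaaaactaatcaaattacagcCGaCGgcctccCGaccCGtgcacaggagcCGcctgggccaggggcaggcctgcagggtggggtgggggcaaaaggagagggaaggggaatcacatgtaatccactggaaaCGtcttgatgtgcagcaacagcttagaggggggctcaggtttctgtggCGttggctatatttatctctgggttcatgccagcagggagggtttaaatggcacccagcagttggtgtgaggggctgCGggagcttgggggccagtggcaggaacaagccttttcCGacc
Pax7 promoter: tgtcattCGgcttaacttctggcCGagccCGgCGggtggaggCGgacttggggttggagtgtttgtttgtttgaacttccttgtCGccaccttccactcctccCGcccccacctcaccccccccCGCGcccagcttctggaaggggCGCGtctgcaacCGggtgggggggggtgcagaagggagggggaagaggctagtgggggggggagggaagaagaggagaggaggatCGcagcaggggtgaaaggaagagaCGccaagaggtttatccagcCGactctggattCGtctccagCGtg
Six4 promoter: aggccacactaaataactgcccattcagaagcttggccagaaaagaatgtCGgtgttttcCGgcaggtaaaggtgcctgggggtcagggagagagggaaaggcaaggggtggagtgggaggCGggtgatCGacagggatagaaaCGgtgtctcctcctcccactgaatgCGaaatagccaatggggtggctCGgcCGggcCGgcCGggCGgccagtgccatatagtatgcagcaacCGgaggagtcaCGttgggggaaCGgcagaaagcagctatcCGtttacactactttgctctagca

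The Pax7 and Six4 promoters held 17 and 15 CpG, with observed over expected ratios of 0.581 and 0.640. The Myf5 promoter held 3 CpG (ratio 0.163) and the Myog promoter 9 (ratio 0.373). Over the 32851 promoters of the same length in the table, the median was 7 CpG and the median ratio 0.384, so that Pax7 and Six4 were on the CpG-rich side, Myf5 on the poor side and Myog near the middle. The E-box CANNTG, the letters that the basic helix-loop-helix factors recognise and a palindrome on both strands, was present 2 times in the Myog promoter and 0 times in the other 3, against 72.3% of all promoters that held it at least once.

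H3K27me3 covered the muscle regulators unevenly. Of the 8 genes, 6 had a peak in the window in each genotype, and the 2 without were the neighbours Myf5 and Myf6. Among all protein-coding genes 38.7% had one in WT, 41.6% in mdx and 39.3% in the mdxTLR4-/- BMDM. At least 50% of the window was covered in 4 genes in WT (Myod1, Pax7, Six4 and Mymk), the same 4 in mdx and 3 in the mdxTLR4-/- BMDM (Myod1, Pax7 and Mymk), against 16.8%, 16.5% and 15% of all genes. The gene start itself was under a peak for 5 genes in WT and mdx (Myod1, Pax3, Pax7, Six4 and Mymk) and for 4 in the mdxTLR4-/- BMDM, where Mymk was missing, against 23.7%, 24% and 22.9% of all genes. H3K27ac was almost missing from these windows: 0 of 8 genes had a peak in WT, 1 (Mymk) in mdx and 0 in the mdxTLR4-/- BMDM, against 40.1%, 34.8% and 36.8% of all genes. The median share of the window covered by H3K27me3 was 49.5% over the 8 genes in WT, 50.3% in mdx and 41.7% in the mdxTLR4-/- BMDM, while the median over all genes was 0 in each list.

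**Figure D1:**
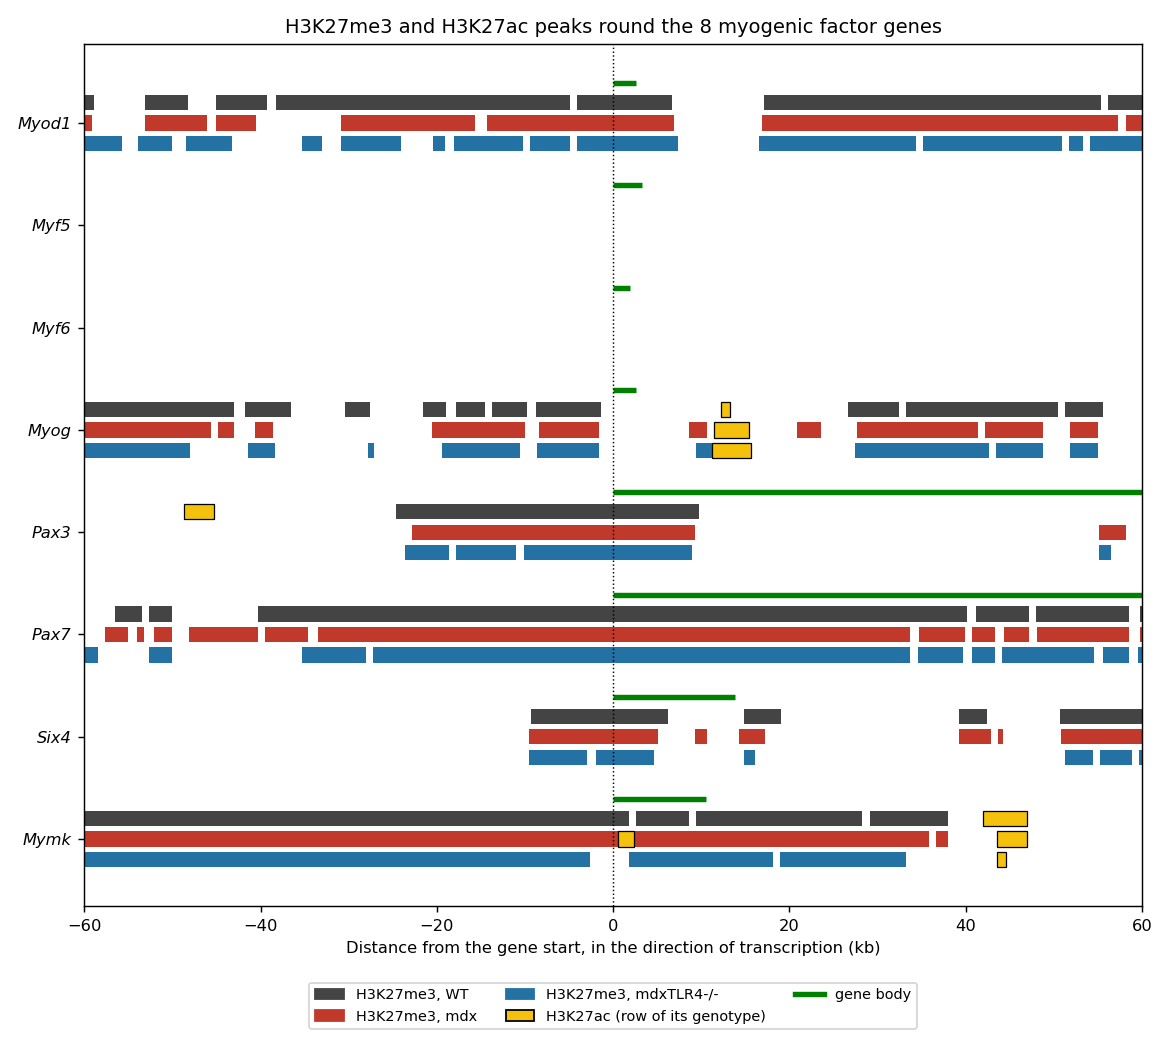
Peaks within 60 kb of the start of each gene, drawn in the direction of transcription, with 1 row for each genotype (grey WT, red mdx, blue mdxTLR4-/-), yellow boxes for H3K27ac and a green line for the gene body. Starts of Myod1, Pax3, Pax7 and Six4 lie inside a peak in each genotype, Myog lies between peaks, the Mymk start lies in a gap in the mdxTLR4-/- BMDM, and Myf5 and Myf6 have no peak in view.

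Pax7, the satellite cell factor, stood in a broad domain. The gene (ENSMUSG00000028736.13, chr4 139737062 to 139833528, minus strand) had 86.5% of its window under H3K27me3 in WT, 89.3% in mdx and 78.6% in the mdxTLR4-/- BMDM. The peak over its start was 80.4 kb long in WT (4872 reads), 67.2 kb in mdx (5052 reads) and 61 kb in the mdxTLR4-/- BMDM (4371 reads), and 25 kb to each side of the start were covered without a break in all 3. The order of these lengths depended on the joining of peaks, since with peaks up to 1 kb apart joined they were 98.8, 92 and 115.4 kb, and with 2 kb 121, 140 and 115.4 kb. It held 60.6 reads for each kb of its length in WT (95% Poisson interval 58.9 to 62.3), 75.2 in mdx (73.1 to 77.3) and 71.7 in the mdxTLR4-/- BMDM (69.5 to 73.8). These densities were at percentiles 93.4, 94.6 and 97.4 of all peaks over the start of a protein-coding gene, and were the highest among the 8 genes in each list. Further into the gene the peaks were sparser, and those other than the peak over the start held 19.1 to 34.9 reads per kb in the WT list, 27.5 to 44.2 in mdx and 23.5 to 39.0 in the mdxTLR4-/- BMDM. Of the 9 exons, 7, 8 and 7 were touched by a peak.

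Pax3, the related factor of embryonic progenitors, carried the mark at its 5′ end and not along its body. The gene (ENSMUSG00000004872.15, chr1 78101267 to 78197134, minus strand) is about as long as Pax7, yet only 14.5% of its window was covered in WT, 17.0% in mdx and 15.1% in the mdxTLR4-/- BMDM. The peak over the start reached 9.73 kb into the gene in WT, 9.33 kb in mdx and 8.93 kb in the mdxTLR4-/- BMDM and touched 4 of 9 exons in each. It was 34.4 kb long with 1669 reads in WT (48.5 per kb, 46.2 to 50.9), 32.2 kb with 2078 reads in mdx (64.5, 61.8 to 67.4) and 19 kb with 1093 reads in the mdxTLR4-/- BMDM (57.5, 54.2 to 61.0). The shorter peak of mdxTLR4-/- BMDM was split by gaps of 1000 and 800 bp from its upstream parts, which held 196 and 189 reads. Since the peak caller joins enriched windows across gaps of up to 600 bp, these gaps are close to its limit, and with peaks up to 1 kb apart joined the domain was 34.4, 32.2 and 32.6 kb long. A second, sparse peak in the gene body was called in mdx (65 reads in 3 kb) and mdxTLR4-/- BMDM (28 reads in 1.4 kb) and not in WT.

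Six4, a homeodomain partner of the Pax factors, was the gene whose cover crossed the 50% mark between genotypes. The gene (ENSMUSG00000034460.9, chr12 73099609 to 73113456, minus strand) had 56.7% of its window under H3K27me3 in WT, 60.7% in mdx and 43.6% in the mdxTLR4-/- BMDM. Among all genes, 1.2% were at or above 50% in WT and mdx and below it in the mdxTLR4-/- BMDM, and Six4 was the 1 gene of the 8 that was. Its start was covered throughout, by a peak of 15.6 kb with 628 reads in WT, 14.6 kb with 749 reads in mdx and 6.6 kb with 363 reads in the mdxTLR4-/- BMDM. The mdxTLR4-/- peak was followed, across a gap of 1000 bp, by a sparser upstream peak of 6.6 kb with 166 reads (25.2 per kb). Joined across that gap the domain was 14.2 kb long, against 15.6 kb in WT and 14.6 kb in mdx BMDM. In mdx BMDM 2 sparse peaks of 80 and 37 reads were also called towards the 3′ end, and the first of them met a WT peak of 103 reads and an mdxTLR4-/- peak of 30 reads that began just past the end of the gene window.

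Myod1, the factor that can turn other cells into muscle, was covered over its whole body in every list. The gene (ENSMUSG00000009471.4, chr7 46376474 to 46379099, plus strand) had 90.7% of its window under H3K27me3 in WT, 100% in mdx and 90.7% in the mdxTLR4-/- BMDM, and all 3 exons lay under the mark. The difference was a single gap of 800 bp, at chr7 46371601 to 46372400, which WT and mdxTLR4-/- BMDM shared and mdx BMDM did not have. The peak over the start ended 6.73, 6.93 and 7.33 kb downstream of it in WT, mdx and mdxTLR4-/- BMDM. It held 592 reads in WT (54.8 per kb, 50.5 to 59.4), 1124 in mdx (53.0, 49.96 to 56.2) and 656 in the mdxTLR4-/- BMDM (57.5, 53.2 to 62.1), and these densities overlapped within their counting error. Upstream of the gap, WT had a long sparse peak of 33.4 kb with 909 reads (27.2 per kb) over the lincRNA 1700025L06Rik, and mdxTLR4-/- BMDM one of 4.6 kb with 112 reads (24.3 per kb). The nearest H3K27ac peak was 317 kb away in each list, at Nomo1.

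Myog, the factor of terminal differentiation, differed from Myod1 in that its start and its 3 exons lay outside the mark. The gene (ENSMUSG00000026459.5, chr1 134289989 to 134292548, plus strand) had 1 H3K27me3 peak in its window in each list, which ended 1389 bp before the start in WT and 1589 bp before it in mdx and mdxTLR4-/- BMDM. The peak held 214 reads in WT (28.9 per kb), 228 in mdx (33.5 per kb) and 162 in the mdxTLR4-/- BMDM (23.1 per kb). It was thus less dense than each peak over the start of another member in the same list. Cover of the window was 42.2%, 39.9% and 39.9%. On the other side, an H3K27ac peak began 12.2 kb downstream of the start in WT (10 reads), 11.4 kb in mdx (21 reads) and 11.2 kb in the mdxTLR4-/- BMDM (12 reads), within the neighbouring gene Ppfia4. The Myog promoter printed above was therefore under neither mark in any list.

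Myf5 and Myf6, adjacent genes on chromosome 10, were under neither mark. Myf5 (ENSMUSG00000000435.1, chr10 107482908 to 107486134, minus strand) starts the muscle programme in the embryo, and Myf6 (ENSMUSG00000035923.4, chr10 107492853 to 107494737, minus strand) is the family member of mature fibres. Both lay inside 1 stretch without any H3K27me3 peak, 844 kb long in WT, 675 kb in mdx and 774 kb in the mdxTLR4-/- BMDM, which also held the starts of Ptprq and Otogl. Of the gaps between H3K27me3 peaks on these chromosomes, 539 of 28122 were as long in WT, 653 of 41759 in mdx and 585 of 36467 in the mdxTLR4-/- BMDM. The nearest H3K27me3 peak to the Myf5 start was 213 kb away in WT, 212 kb in mdx and 143 kb in the mdxTLR4-/- BMDM, and the nearest H3K27ac peak 156, 351 and 364 kb away. Being more than 100 kb from an H3K27me3 peak is common, since 26.6% of all gene starts were so in WT, 22.0% in mdx and 23.8% in the mdxTLR4-/- BMDM. The stretch held 3, 1 and 1 H3K27ac peaks with 24, 7 and 5 reads in all. Repeats made up 16.3% of the Myf5 window and 16.6% of the Myf6 window, within the 14.0% to 22.6% of the other 6 windows, and there were 0 undetermined bases in the reference.

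Mymk, which myoblasts need for fusion, was the 1 gene of the 8 whose start was covered in some lists and not in others. The gene (ENSMUSG00000009214.9, chr2 27061636 to 27072179, minus strand) had 90.3% of its window under H3K27me3 in WT, 100% in mdx and 73.4% in the mdxTLR4-/- BMDM. In WT the start lay in a peak of 121.6 kb with 5788 reads (47.6 per kb, 46.4 to 48.8), and in mdx in a peak of 156.8 kb with 8204 reads (52.3, 51.2 to 53.5). In mdxTLR4-/- BMDM it lay in a gap of 4400 bp, between a peak of 16.4 kb with 583 reads over the gene body and one of 125.8 kb with 5590 reads upstream. Within 2 kb of the start, 94.5% of the sequence was covered in WT, 100% in mdx and 5.55% in the mdxTLR4-/- BMDM. This gap is longer than the 800 bp breaks of the WT domain inside the gene. Joining peaks up to 2 kb apart could not close a gap of this length, so it does not test the gap. A start covered in WT and mdx and not in the mdxTLR4-/- BMDM was found for 1.31% of all genes. The long domain is not a domain of Mymk alone, since it also held the starts of Adamtsl2, Fam163b and Dbh in each list.

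The single H3K27ac peak in any of the 8 windows was also at Mymk. It was called in mdx BMDM, 1.8 kb long with 8 reads (4.44 per kb, 1.92 to 8.76), began 579 bp downstream of the start and lay inside the H3K27me3 peak of the same genotype. The median H3K27ac peak of the mdx list held 10 reads at 6.67 per kb. With 8 reads in merged libraries, no statement on a gain of acetylation at Mymk can be made at this depth.

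**Figure D2:**
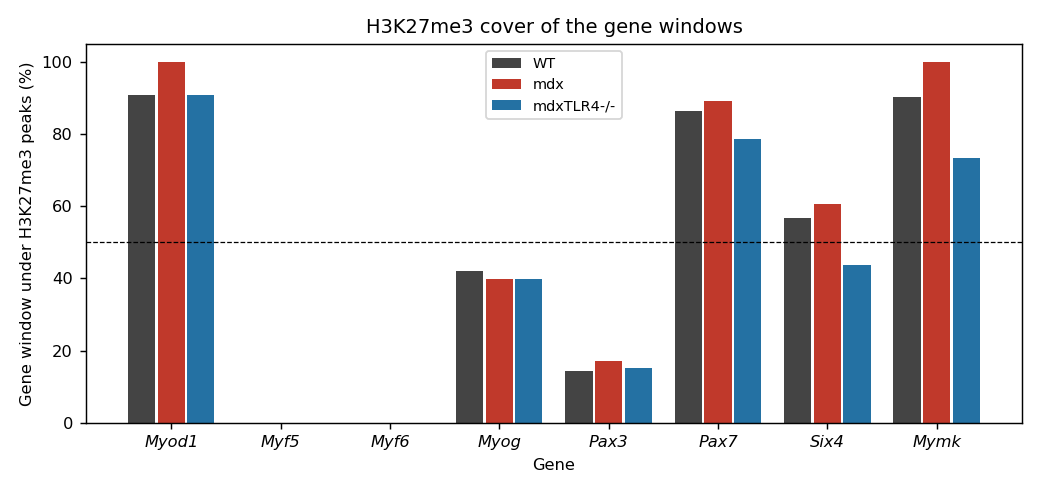
Share of each gene window under H3K27me3 peaks (bars, percent) in WT, mdx and mdxTLR4-/- BMDM, with a dashed line at 50%; each bar is 1 merged list, so there are no error bars. Six4 stands at 56.7% and 60.7% in WT and mdx and at 43.6% in the mdxTLR4-/- BMDM, Mymk at 100% in mdx and 73.4% in mdxTLR4-/-, and Myf5 and Myf6 are at 0.

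Set side by side, 5 of the 8 windows had higher cover in mdx than in WT, 1 lower (Myog) and 2 were at 0 in both. The median difference over all 8 was 2.64 percentage points. It includes Myf5 and Myf6, which have no peak in any list and so are not in the set of genes that follows. Among the 9773 genes with a peak in any list, 42.3% were higher and 43.5% lower in mdx than in WT, with a median difference of 0. In mdxTLR4-/- BMDM cover was lower than in mdx at 5 genes, by 26.6 points at Mymk, 17.1 at Six4, 10.7 at Pax7, 9.27 at Myod1 and 1.96 at Pax3, and equal at Myog. The lists of mdx BMDM enter both comparisons. Lower cover in mdxTLR4-/- than in mdx BMDM was also the more frequent direction among these 9773 genes, 58.2% of which were lower and 28.6% higher, with a median difference of -1.08 points. The mdxTLR4-/- list had the fewest reads in peaks, and the part of this in the lower cover was not tested.

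Read density over the gene starts was compared as the ratio of reads per kb in the peak over the start, with an exact 95% interval that covers counting error only. Between mdx and WT the unscaled ratio was 1.33 at Pax3 (1.25 to 1.42), 1.27 at Six4 (1.14 to 1.42), 1.24 at Pax7 (1.19 to 1.29), 1.10 at Mymk (1.06 to 1.14) and 0.967 at Myod1 (0.875 to 1.07). The median over the 4703 genes with a peak over the start in both lists was 1.22, with quartiles of 1.11 and 1.34. Of these genes, 90.6% were above 1. Six4 and Pax7 lay near the median and Pax3 just under the upper quartile, while Mymk and Myod1 lay below the lower quartile. At Myod1 the mdx peak of 21.2 kb reached upstream across the place of the gap, while the WT peak of 10.8 kb ended there. Over all peaks of the window the ratio was 1.56 (1.44 to 1.69), but it sets 21200 bp in mdx against 44200 bp in WT. The WT side includes the whole sparse peak of 33.4 kb, which only touches the edge of the window. The next mdx peak upstream lay outside the window and was not counted. Scaled to the reads in peaks, the median of all genes was 0.995 and the peaks over the start were at 1.09 for Pax3, 1.04 for Six4, 1.01 for Pax7, 0.898 for Mymk and 0.790 for Myod1.

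Between mdxTLR4-/- and WT BMDM the ratio was 1.37 at Six4 (1.20 to 1.56), 1.19 at Pax3 (1.10 to 1.28), 1.18 at Pax7 (1.13 to 1.23) and 1.05 at Myod1 (0.938 to 1.18), against a median over all genes of 0.991 with quartiles of 0.899 and 1.10. At Six4 and Pax3 the mdxTLR4-/- peak was the one without the sparser flank described above. The same held at Pax7, where the mdxTLR4-/- peak was 61 kb long and the WT peak 80.4 kb. Separate mdxTLR4-/- peaks of 203 and 161 reads lay on its 2 sides, within the stretch of the WT peak. Scaled to the reads in peaks, the median of all genes was 1.12 and these 4 genes were at 1.55, 1.34, 1.34 and 1.19. Over all peaks of its window, Six4 had 40.1 reads per kb in mdxTLR4-/- and 40.3 in WT BMDM, a ratio of 0.996 (0.885 to 1.12). The window ratio was 1.13 at Pax3 (1.05 to 1.22) and 1.13 at Pax7 (1.09 to 1.17), where the split upstream flanks lie outside the window. It was 1.41 at Myod1 (1.29 to 1.54), where the WT side again includes the long sparse peak. For Pax7 the peak ended 33.7 kb into the gene in both mdx and mdxTLR4-/- BMDM. Its ratio of mdxTLR4-/- to mdx was 0.953 (0.915 to 0.993), where the median of all genes was 0.814. Scaled to the reads in peaks, these values were 1.32 and 1.13. The unscaled ratio was 1.09 at Myod1 (0.984 to 1.20), 1.07 at Six4 (0.943 to 1.22) and 0.891 at Pax3 (0.828 to 0.960). All 4 genes were thus above that median, and at all 4 the mdxTLR4-/- peak was the shorter one. The peaks of the 6 windows that held any were also pooled, with Mymk giving 39.4% to 42.9% of the reads. The pooled ratio was 1.20 between mdx and WT (1.17 to 1.22) and 0.885 between mdxTLR4-/- and mdx (0.866 to 0.904). Between mdxTLR4-/- and WT BMDM it was 1.06 (1.04 to 1.08). Scaled to the reads in peaks, the mdx to WT and the mdxTLR4-/- to mdx ratios turned. Relative to the 1st percentile of density of each list, only the mdxTLR4-/- to mdx ratio did. Whether a lower density stands for fewer cells with the mark or for less of it per cell cannot be told apart in these bulk libraries.

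**Figure D3:**
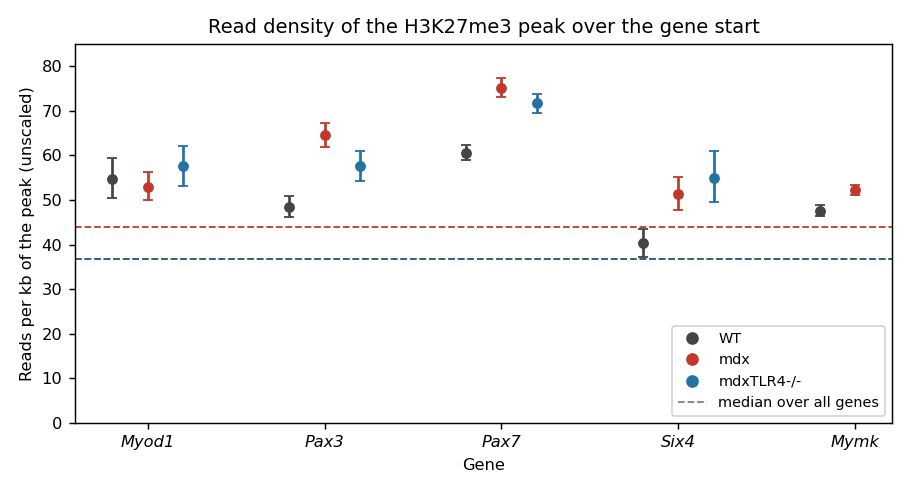
Reads per kb (unscaled) of the H3K27me3 peak over the start of each gene that had one, as points with 95% Poisson intervals of the read count; dashed and dotted lines give the median over all protein-coding genes, 44.0 in mdx and 36.7 in both other lists. All points lie above the median of their list, Pax7 is highest in each, and Mymk has no point in the mdxTLR4-/- BMDM.

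The CpG content around the start, taken 500 bp to each side, separated some of the covered from the uncovered genes. Pax3, Pax7 and Six4 had observed over expected CpG of 0.669, 0.638 and 0.616 and Myod1 0.480, and all 4 starts were under H3K27me3. Myf5, Myf6 and Myog, with 0.406, 0.379 and 0.344, were not. Mymk broke this order, since it had the lowest value of the 8, 0.130, with 9 CpG in the stretch, and yet lay under the mark in WT and mdx BMDM. Over all genes, the share of starts under H3K27me3 in WT was highest for ratios of 0.4 to 0.6, at 37.2%. The share was lower at both ends, 18.6% below 0.2 and 14.1% from 0.8 up. For 0.2 to 0.4, which holds the uncovered Myf6 and Myog, it was 29.4%. For 0.6 to 0.8, which holds the covered Pax3, Pax7 and Six4, it was 24.8%. Myod1, covered, and Myf5, not covered, shared the bin of 0.4 to 0.6. Of the 8 members, 7 had no H3K27ac within 1 kb of the start in any list (Mymk did, through its mdx peak). This was common among all genes. From the lowest bin to the highest it held for 4562 of 4917, 3170 of 3706, 2194 of 3055, 2832 of 5608 and 1652 of 4469. Among all genes without such H3K27ac, the shares of starts under H3K27me3 in WT were 19.7%, 33.7%, 50.9%, 47.9% and 37.7% in the same order. The bins were chosen after values had been seen.

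**Figure D4:**
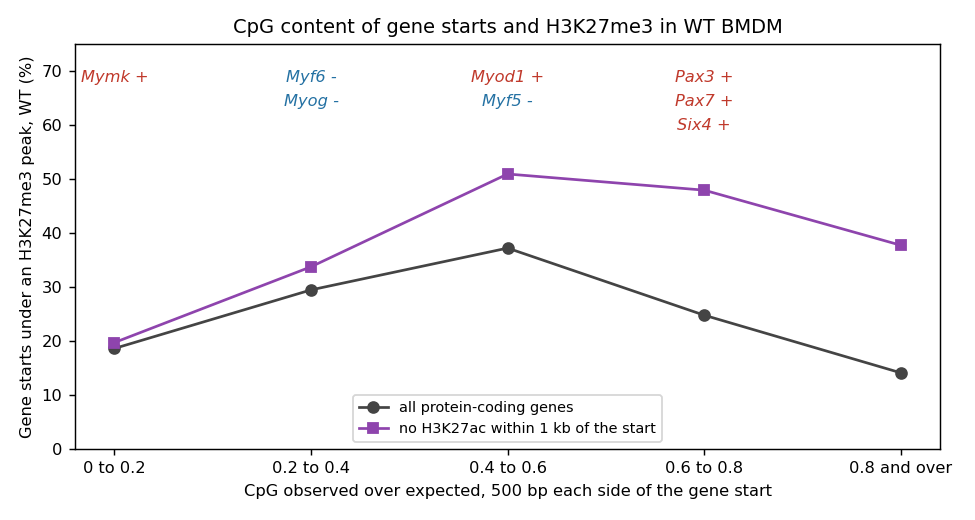
Percent of gene starts under an H3K27me3 peak in WT BMDM, by CpG observed over expected around the start, for all protein-coding genes (circles) and for those without H3K27ac near the start (squares). Gene names stand above the bin they fall in, marked + where the start is under a peak and - where it is not: Pax3, Pax7, Six4, Myod1 and Mymk are +, and Myf5, Myf6 and Myog are -.

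The other genes of the muscle programme were covered to an extent that varied with the list. Of 13 upstream and co-acting factors, 10 had the start under H3K27me3 in each genotype, and Tbx1, Lbx1 and Meox1 had 100% of the window covered in each list. The 3 without any H3K27me3 were the MADS-box factors Mef2a, Mef2c and Mef2d, and Mef2a had H3K27ac within 1 kb of the start in all 3 lists.

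Of 7 fusion and cell surface genes, 6, 7 and 7 had a covered start. The gene that differed was Mymx (myomixer), the fusion partner of Mymk, with 0 cover in WT, 30.8% in mdx and 25.2% in the mdxTLR4-/- BMDM. Of 8 acetylcholine receptor and excitation genes, 5, 6 and 6 starts were covered, with Chrne, the adult receptor subunit, at 0, 31.0% and 34.8% of its window, and Musk, the kinase of the neuromuscular synapse, without a peak. Of 22 contractile and energy genes 9, 10 and 9 starts were covered. The adult fast myosin genes Myh1, Myh2 and Myh4 had no H3K27me3 peak in any list, whereas Myh3 and Myh7 had 84.3% to 100% of the window covered. Myh8, the other myosin heavy chain gene of the list, had 0 cover in WT and 4.89% in mdx and mdxTLR4-/- BMDM. Its start was uncovered in each list. Tnni2 and Tnnc1, troponin subunits, were the 2 genes of that list with H3K27ac within 1 kb of the start, in each list of peaks.

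**Figure D5:**
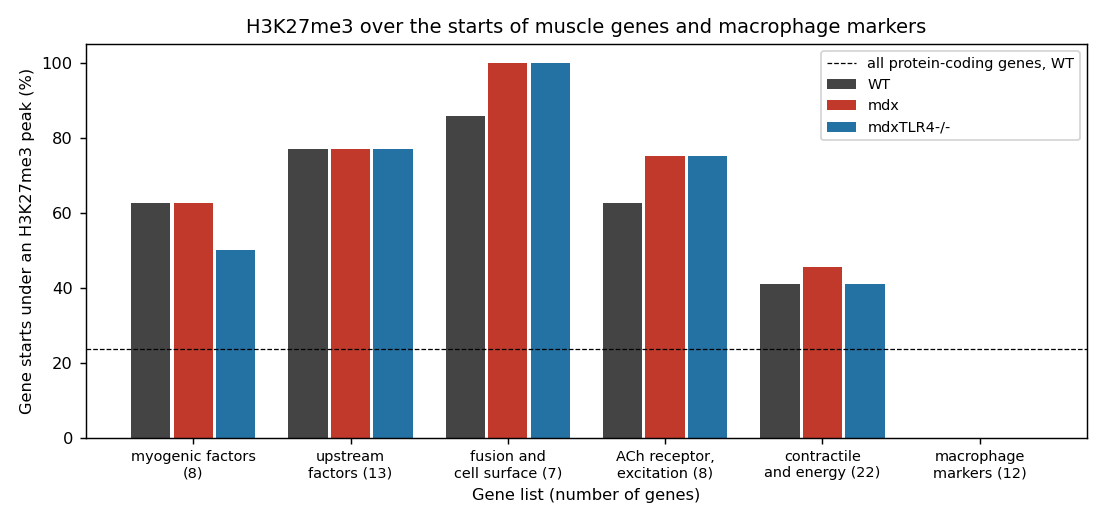
Percent of gene starts under an H3K27me3 peak (bars) in each list of muscle genes and in the macrophage markers, by genotype, with the number of genes in brackets and a dashed line at 23.7%, the share of all protein-coding genes in WT. The myogenic factors stand at 62.5%, 62.5% and 50%, upstream factors at 76.9% in each genotype, contractile genes at 40.9% to 45.5% and macrophage markers at 0.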

How the data were processed

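Native ChIP-seq of BMDM was analysed from 6 deposited peak lists, 1 for each mark and genotype. Per the submitters' processing notes, CASAVA 1.8, cutadapt 1.15, Bowtie2 2.3.4 and SICER 2.0 were used with the mm10 build. As the methods describe, the authors merged replicates and called peaks with windows of 200 bp, gaps of at most 600 bp and a false discovery rate under 0.01. The value of a peak is its read count in the ChIP, deposited by the authors without scaling for depth or length and without subtracting input. Broad peaks therefore depend on depth and on the joining of windows.

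Coordinates are 1-based. Cover is the percent of the gene window under peaks, and density is reads per kb of peak. Poisson intervals of density and Clopper-Pearson intervals of ratios are exact, at the 95% level, and cover counting error only. Densities were also scaled to the reads in peaks of each list and to its 1st percentile of density. No test between genotypes was made. All 8 genes are named, with other genes from fixed lists of the muscle programme and of cell type markers. Of these lists the rule names genes under the same peak as a member, and others were named after their values were seen. The members and lists were chosen with earlier results of these data known. Of the upstream factors, 2 genes are not reported here. CpG and promoter values are descriptions. The procedure was tested on simulated data. The scripts ran under Python 3.11.15 with pandas 2.3.3, scipy 1.17.1, matplotlib 3.10.9 and numpy 2.4.6.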

Additional observations from a re-analysis of the deposited data

How the results depend on the processing

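Each genotype was 1 merged list, so depth and calling limit all comparisons. No paired analysis was possible because the replicates were merged before deposit, and leaving out a replicate was not possible for the same reason. Of the counts and pooled ratios, 51 alternative values stayed close to the reported one, 16 moved and 5 turned. Close includes a change such as 5 genes against 4 in WT at the limit of 20% of the window. Some of the 51 could not move. No peak was shared between members, so counting each member on its own changed nothing. A stricter filter leaves a count of 0 at 0, and taking the same number of peaks leaves the shortest list as it was. The tally is therefore not a measure of how firm the results are. In mdxTLR4-/- BMDM, 5 genes had at least 20% of the window covered and 1 had at least 80%. Within 50 kb of the start, 3 genes had H3K27ac in WT, 2 in mdx and 2 in the mdxTLR4-/- BMDM, and 0 had it in mdx in the 5 kb upstream. The share of all genes at these limits was not computed, so these counts cannot be read as high or low.

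The pooled density ratio of mdx to WT was 0.977 when scaled to the reads in peaks, 1.03 relative to the 1st percentile, 1.15 for peaks within 2 kb of the start, 1.14 for the peak over the start and 1.24 without Mymk. That of mdxTLR4-/- to mdx was 1.23, 1.13, 1.02, 1.12 and 0.935 under these settings, and that of mdxTLR4-/- to WT 1.20, 1.16, 1.17, 1.28 and 1.16. The last 2 settings were chosen after seeing the data. The change in scale itself moves the first and second values, and for the others the cause was not tested.

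For single genes, over all peaks of the window, scaling to the reads in peaks and to the 1st percentile turned the mdxTLR4-/- to mdx ratio at Myod1 (1.25 and 1.15), Pax3 (1.25 and 1.15), Six4 (1.22 and 1.12) and Mymk (1.15 and 1.06). It turned the mdx to WT ratio at Pax7 (0.951 and 1.000), Six4 (0.925 and 0.972) and Mymk (0.932 and 0.980), and the mdxTLR4-/- to WT ratio at Mymk (1.07 and 1.04). For the peak over the start alone, scaling turned the mdxTLR4-/- to mdx ratio at Pax3 (0.891 unscaled, 1.24 and 1.14 scaled). It did so at Pax7 (0.953 unscaled, 1.32 and 1.22 scaled) and for mdx to WT at Mymk (1.10 unscaled, 0.898 and 0.944 scaled). A ratio was counted as turned only where its unscaled interval excluded equal density. Some window ratios whose interval did not also changed side. These were mdxTLR4-/- to mdx at Pax7 (0.969 unscaled, 1.34 and 1.24 scaled) and mdx to WT at Myog (1.16 unscaled, 0.947 and 0.996 scaled). The same held for mdxTLR4-/- to WT at Six4 (0.996 unscaled, 1.13 and 1.09 scaled).

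The length of the peak over the start depended on how neighbouring peaks were joined, an alternative also chosen after seeing the data. At Myod1 the mdx to WT length ratio was 1.96 as called, 0.409 with peaks up to 1 kb apart joined and 0.730 with 2 kb. Its mdxTLR4-/- to WT ratio went from 1.06 to 0.537 with either, and its mdxTLR4-/- to mdx ratio from 0.538 to 1.31 with 1 kb. At Pax3 the mdxTLR4-/- to mdx ratio went from 0.590 to 1.01 with either. At Pax7 it went from 0.908 to 1.25 with 1 kb, the mdxTLR4-/- to WT ratio from 0.759 to 1.17 with 1 kb, and the mdx to WT ratio from 0.836 to 1.16 with 2 kb. At Six4 the mdxTLR4-/- to mdx ratio went from 0.452 to 0.973 with either.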
